A study of Homo sapiens with 4 samples.

Results

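The 9 enzymes that make, convert or destroy the deoxynucleotide building blocks of DNA (RRM1, RRM2, RRM2B, TYMS, DUT, DTYMK, TK1, DCK and SAMHD1) were taken by gene symbol from a table of 25066 genes, and all 9 had a row. The table came from NUDUL1, an established human line of diffuse large B cell lymphoma (DLBCL), from which the study had derived single-cell clones with doxycycline-inducible Cas9 that were then transduced with the thromboxane receptor Tbxa2r. Cells received either a control guide RNA or a guide against GNA13, which encodes the G protein subunit Gα13, and the methods give 1 guide per genotype. All 4 libraries (2 control and 2 GNA13-deficient) came from cells exposed for 24 h to 10 nM U46619, a stable thromboxane A2 analogue that activates the transduced receptor, so the comparison is between genotypes under stimulation and holds no unstimulated library. Cells were treated in duplicates within each genotype and nothing states that the duplicates were separate infections, so p-values measure the spread between these samples only, which may be technical.

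Dividing cells assemble DNA from 4 deoxynucleoside triphosphates (dNTPs). Ribonucleotide reductase makes them by reducing ribonucleotides, with a large catalytic subunit (RRM1) joined to one of the small subunits RRM2, which is the form made in S phase, and RRM2B, which responds to DNA damage and also serves cells outside S phase. Thymidine nucleotides take an extra route, in which DUT turns dUTP into dUMP, TYMS methylates dUMP to dTMP, and DTYMK phosphorylates dTMP further, while TK1 and DCK recover nucleosides from outside the cell and SAMHD1 cleaves surplus dNTPs. Many of these genes are transcribed in waves with the cell cycle, and several encode targets of drugs used against leukemia and lymphoma.

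The libraries held 29209544 to 31537955 mapped reads each. GNA13 mRNA, which is a check of the labels only if the edit lowers the transcript, was not lower in the libraries labelled GNA13-deficient. Its log2 normalised read count was 12.46 and 12.45 with the control guide and 13.10 and 13.11 with the GNA13 guide (difference 0.65, SE 0.05, adjusted p = 0.00214), so the genotype names used here, and every direction, rest on the labels. Over the 16945 genes tested, limma called 5037 (29.7%) at an adjusted p under 0.05, of which 2218 (13.1% of genes) had the higher level in GNA13-deficient libraries and 2819 (16.6%) the lower level. The groups did not overlap for 65.3% of genes, 31.3% in the higher and 34% in the lower direction. The median difference of all genes was -0.02 as deposited, 0.07 after quantile normalization and 0.18 after centring each library on its median, and the share of calls in the higher direction was 44.03%, 51.83% and 69.14% under these scalings. B cell markers had summed levels of 56520 to 63230 on the linear scale in the 4 libraries. The T and NK list summed to 128 and 184 in control and 26.7 and 12.9 in GNA13-deficient libraries, with CD3D, CD3E and CD2 at 0 throughout. The myeloid list summed to 228 and 242 against 28.7 and 26.9, with FCGR3A, S100A8 and S100A9 at 0, and the stromal and endothelial list to 123 and 117 against 28.7 and 28.0, with CDH5 at 0. In control libraries CD4 (115 and 175 reads) made up most of the T and NK sum. PECAM1 (112 and 115 reads) made up most of the stromal and endothelial sum there. The part of these low signals in the results was not tested.

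Most enzymes of deoxynucleotide supply had higher mRNA levels in the libraries labelled GNA13-deficient. Of the 9 enzymes, 7 were called higher (RRM2, TYMS, DTYMK, DUT, SAMHD1, TK1 and DCK), RRM2B was called lower and RRM1 was not called. This compares with 13.1% of all genes called higher and 16.6% called lower. The groups did not overlap for any of the 9, in the higher direction for 8, against 65.3% and 31.3% of all genes. All 9 lay above the median level, where calls were more common. Fitted on their own, genes of at least median level had 4083 of 8473 called, 2229 of them higher. The median difference of the 9 enzymes was 0.76 on the log2 scale against -0.02 for all genes tested. In bulk RNA, a change in the share of cells in a given phase cannot be told apart from a change in RNA per cell. Leaving out any 1 of the 4 libraries ended every call in the table. The direction of all 9 enzymes was kept in each of these fits, which follows from groups that did not overlap and is no test.

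**Figure D1:**
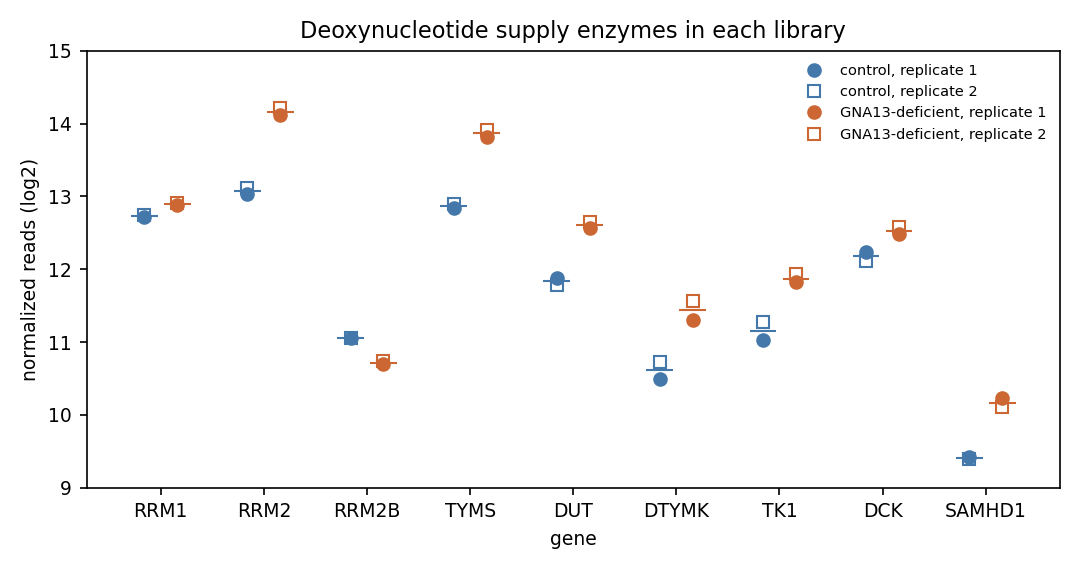
Log2 normalised read count (vertical axis) of the 9 enzymes (horizontal axis) in each of the 4 libraries, with a point per library and a line at the mean of each group. The libraries labelled GNA13-deficient lie above both controls for 8 enzymes and below both for RRM2B, with the widest gap for RRM2 (13.04 and 13.12 against 14.12 and 14.21).

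Promoter windows of 250 bases ending just before the annotated start were read from the RefSeq table (build GRCh38.p14), which held 13 windows for 8 of the 9 enzymes. It held no window for RRM2B, the enzyme called lower, so RRM2B was not searched. Each window was searched on both strands for the letters TTTCCCGC, TTTGGCGC, TTTGCCGC and TTTCGCGC, core forms of the site of E2F factors, which time transcription to the start of S phase, and for CCAAT, the box bound by NF-Y, common in genes expressed in dividing cells. No match of one motif overlapped a match of the other. The windows below are all those with an E2F match or at least 2 CCAAT boxes, and the capitals mark the matches. One of the 2 RRM2 windows (chr2:10122489-10122738, plus strand) held 3 CCAAT boxes, 123, 93 and 66 bases before the start, and the other held 1.
RRM2: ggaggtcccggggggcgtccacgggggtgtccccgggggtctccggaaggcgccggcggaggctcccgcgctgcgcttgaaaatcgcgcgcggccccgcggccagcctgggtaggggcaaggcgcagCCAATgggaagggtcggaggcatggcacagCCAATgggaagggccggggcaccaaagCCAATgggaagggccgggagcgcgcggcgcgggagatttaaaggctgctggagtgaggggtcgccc
The TYMS window (chr18:657403-657652, plus strand) held 1 E2F match, on the opposite strand and 39 bases before the start.
TYMS: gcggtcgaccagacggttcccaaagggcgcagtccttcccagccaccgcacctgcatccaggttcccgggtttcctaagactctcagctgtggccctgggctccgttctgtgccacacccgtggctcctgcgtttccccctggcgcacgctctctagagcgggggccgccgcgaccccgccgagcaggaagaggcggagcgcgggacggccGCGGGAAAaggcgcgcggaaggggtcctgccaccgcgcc
One of the 4 DUT windows (chr15:48331947-48332196, plus strand) held 2 E2F matches, 42 and 27 bases before the start, and the other DUT windows held none.
DUT: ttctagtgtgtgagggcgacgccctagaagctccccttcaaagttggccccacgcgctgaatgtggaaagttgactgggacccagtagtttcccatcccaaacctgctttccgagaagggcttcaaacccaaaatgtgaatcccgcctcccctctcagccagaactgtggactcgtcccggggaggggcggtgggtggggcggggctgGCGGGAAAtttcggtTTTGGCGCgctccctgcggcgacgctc
One of the 2 TK1 windows (chr17:78187053-78187302, minus strand) held 2 CCAAT boxes in the reverse orientation, 77 and 46 bases before the start.
TK1: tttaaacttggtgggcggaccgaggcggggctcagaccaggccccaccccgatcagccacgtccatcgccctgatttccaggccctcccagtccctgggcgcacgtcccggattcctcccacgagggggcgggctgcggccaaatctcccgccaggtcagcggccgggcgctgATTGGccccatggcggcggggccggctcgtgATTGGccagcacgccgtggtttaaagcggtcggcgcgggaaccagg
The SAMHD1 window (chr20:36951709-36951958, minus strand) held 2 CCAAT boxes, 49 and 38 bases before the start.
SAMHD1: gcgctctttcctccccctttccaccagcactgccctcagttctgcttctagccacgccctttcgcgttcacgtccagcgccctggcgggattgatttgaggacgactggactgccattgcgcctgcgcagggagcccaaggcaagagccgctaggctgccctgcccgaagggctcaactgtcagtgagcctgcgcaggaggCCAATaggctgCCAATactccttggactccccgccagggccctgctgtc
The DTYMK window (chr2:241686816-241687065, minus strand) held 2 CCAAT boxes, 92 and 24 bases before the start.
DTYMK: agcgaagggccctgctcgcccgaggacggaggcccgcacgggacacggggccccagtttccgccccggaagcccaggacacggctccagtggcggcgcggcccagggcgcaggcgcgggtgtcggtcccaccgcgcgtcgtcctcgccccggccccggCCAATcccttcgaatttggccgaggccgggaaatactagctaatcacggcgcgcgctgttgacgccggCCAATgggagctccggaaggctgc

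RRM1 had 1 CCAAT box (28 bases before the start) and DCK had neither motif. Among 35116 windows of the same length in the table, 2.79% held an E2F match and 0.122% held at least 2, whereas 32% held a CCAAT box, 9.53% at least 2 and 2.93% at least 3. These matches describe letters only, and binding was not measured.

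The subunits of ribonucleotide reductase did not move alike, with RRM2 called higher, RRM2B called lower and RRM1 not called. RRM2, the S phase small subunit, had log2 values of 13.04 and 13.12 in control and 14.12 and 14.21 in GNA13-deficient libraries. Both GNA13-deficient values lay above both controls by far more than the gap within either pair. The difference was 1.09 (SE 0.07, 95% interval 0.91 to 1.26), a 2.12-fold higher level with an adjusted p of 0.00157. Ordered by signed difference, 95.9% of all genes tested lay below RRM2. RRM2 had 8249 and 9061 reads in control and 17327 and 17617 in GNA13-deficient libraries. RRM2 lies on chromosome 2 (GRCh37, chr2:10260825-10351851, plus strand), with 10 exons in its reference transcript of 3258 bases.

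RRM1, the large subunit that holds the catalytic and regulatory sites, had values of 12.72 and 12.74 in control and 12.88 and 12.91 in GNA13-deficient libraries. The groups did not overlap, yet the difference was small, 0.17 (SE 0.05, 95% interval 0.03 to 0.30, 1.12-fold), and it did not pass the test (adjusted p = 0.0746). Its call depended on the scaling. RRM1 passed after median centring (0.37, adjusted p = 0.0135) and was at 0.04 after quantile normalization (adjusted p = 0.564). RRM1 spans chr11:4115937-4160162 on the plus strand, with 19 exons.

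RRM2B, the damage-inducible small subunit, went the other way. Its log2 values were 11.06 and 11.05 in control and 10.70 and 10.74 in GNA13-deficient libraries, so both GNA13-deficient libraries were below both controls. The difference was -0.34 (SE 0.05, 95% interval -0.47 to -0.20), a 1.26-fold lower level with an adjusted p of 0.0113. This was the only enzyme of the 9 called lower, and after median centring the difference was -0.13 and was not called (adjusted p = 0.174). RRM2B spans chr8:103216730-103251189 on the minus strand, with 9 exons.

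Ratios between subunits of the same library do not depend on a scaling factor per library. RRM2 minus RRM1 was 0.32 and 0.38 in control and 1.24 and 1.30 in GNA13-deficient libraries, a group difference of 0.92 (1.89-fold), with 0.86 between the groups and at most 0.06 within a pair. RRM2 minus RRM2B was 1.98 and 2.07 against 3.42 and 3.47, a group difference of 1.42 (2.68-fold). RRM2B minus RRM1 was -1.66 and -1.69 against -2.18 and -2.17, a group difference of -0.50. Relative to both other subunits RRM2 was thus higher, and relative to RRM1 RRM2B was lower, in both GNA13-deficient libraries. Each exact two-sided permutation test gave p = 0.333, the smallest value that 2 against 2 libraries can give. Per kilobase of transcript, RRM2B made up 14.8% and 14% of small subunit mRNA in control and 5.98% and 5.82% in GNA13-deficient libraries. The ratio of both small subunits to RRM1, also per kilobase, was 1.41 and 1.46 in control and 2.42 and 2.51 in GNA13-deficient libraries.

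**Figure D2:**
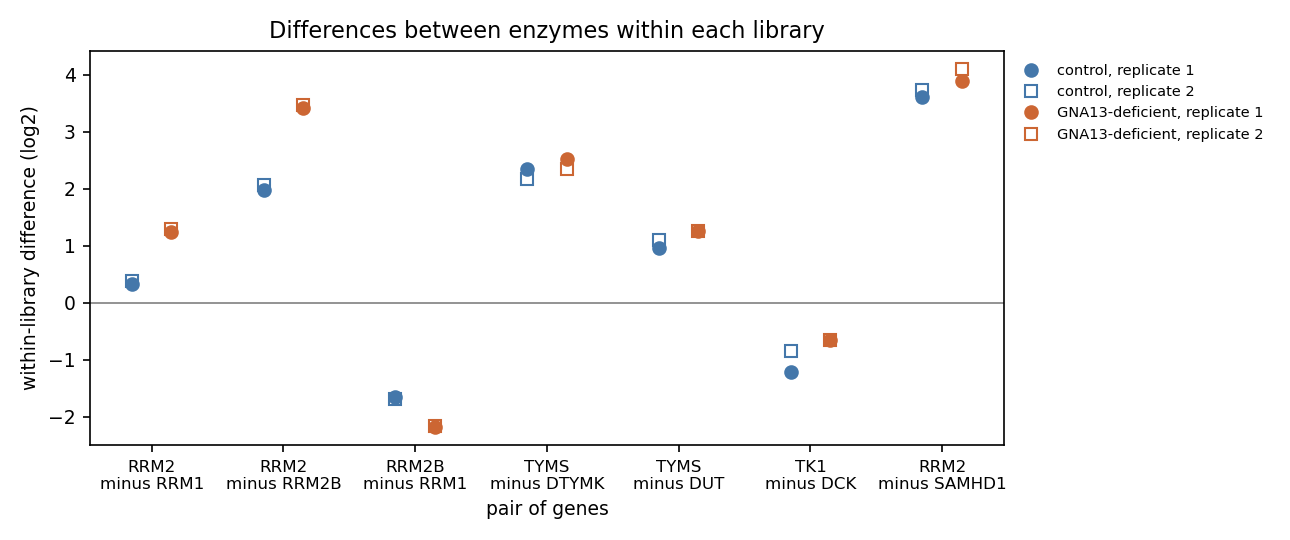
Log2 difference between 2 enzymes of the same library (vertical axis) for 7 pairs (horizontal axis), with a point for each of the 4 libraries. RRM2 minus RRM2B stands at 1.98 and 2.07 in control and 3.42 and 3.47 in GNA13-deficient libraries, the widest separation of the 7 pairs.

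The 3 enzymes of the thymidylate route were each higher in the libraries labelled GNA13-deficient. TYMS, thymidylate synthase, the target of fluorouracil, had log2 values of 12.84 and 12.90 in control and 13.82 and 13.91 in GNA13-deficient libraries. With no overlap, the level was 2.00-fold higher (log2 difference 1.00, SE 0.06, 95% interval 0.83 to 1.16, adjusted p = 0.00157). The gene spans chr18:657653-673578 on the plus strand, with 7 exons. Its 3′ end overlaps ENOSF1 on the opposite strand over 3261 bases, and its 5′ end overlaps TYMSOS (listed as C18orf56) over 698 bases. ENOSF1 had 311 and 317 reads in control and 567 and 543 in GNA13-deficient libraries (difference 0.89, adjusted p = 0.00277). TYMSOS had 32, 40, 78 and 65 reads in the same order (difference 1.06, adjusted p = 0.0335). The kit marks strand, but the strand setting used in counting is not given in the sources used here, so reads of these overlaps cannot be assigned with certainty.

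DUT, the dUTPase that keeps uracil out of DNA, had values of 11.88 and 11.79 in control and 12.56 and 12.65 in GNA13-deficient libraries. Both of the latter lay above both controls, and the difference of 0.77 (SE 0.06, 1.71-fold, 95% interval 0.61 to 0.93) passed the test (adjusted p = 0.00233). DUT (chr15:48623208-48635570, plus strand) has 8 annotated pseudogenes, RRM2 has 3 and TYMS has 2, and none of these had a row, so how reads shared with them were counted is uncertain. DTYMK, the kinase that makes dTDP from dTMP of either origin, had values of 10.50 and 10.73 in control and 11.31 and 11.57 in GNA13-deficient libraries. The gap between the groups was wider than the gap within either pair, although DTYMK had the largest error of the 9 (0.82, SE 0.12, 95% interval 0.51 to 1.14, 1.77-fold, adjusted p = 0.00949). DTYMK lies at chr2:242615162-242626359 on the minus strand.

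TYMS was also set against its partners of the same route within each library. The group difference was 0.23 for TYMS minus DUT, with 0.154 between the groups and up to 0.146 within a pair, and 0.18 for TYMS minus DTYMK, where the groups were separated by only 0.01 against up to 0.17 within a pair. The first separation barely exceeded the spread between replicates and the second did not.

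Of the salvage kinases, TK1, the cytosolic thymidine kinase of S phase, had log2 values of 11.03 and 11.27 in control and 11.82 and 11.93 in GNA13-deficient libraries. The controls differed from each other more than the GNA13-deficient libraries did, but remained below them. The difference was 0.73 (SE 0.10, 95% interval 0.47 to 0.98, 1.65-fold, adjusted p = 0.00741). DCK, which phosphorylates deoxycytidine and activates cytarabine and gemcitabine, had values of 12.24 and 12.12 in control and 12.48 and 12.58 in GNA13-deficient libraries. The groups did not overlap, and the difference was 0.34 (SE 0.07, 95% interval 0.16 to 0.53, 1.27-fold, adjusted p = 0.0230), the least of the 7 that were called higher. The group difference of TK1 minus DCK was 0.38. Its groups were separated by 0.19 against up to 0.37 within a pair, so the separation was not larger than the replicate spread. TK1 spans chr17:76170172-76183314 (minus strand). DCK spans chr4:71858255-71896631 (plus strand) and shares 28801 bases of its span with MOB1B (listed as MOBKL1A) on the same strand, whose level was lower in the GNA13-deficient libraries (difference -0.46, adjusted p = 0.0337, and -0.25 and not called after median centring, adjusted p = 0.103).

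SAMHD1, the triphosphohydrolase that degrades dNTPs and inactivates the active form of cytarabine, was higher along with the enzymes of synthesis. Its log2 values were 9.43 and 9.39 in control and 10.23 and 10.11 in GNA13-deficient libraries, from 677 and 684 reads to 1171 and 1024. The groups did not overlap, with a difference of 0.76 (SE 0.07, 95% interval 0.57 to 0.95, 1.69-fold, adjusted p = 0.00324). The group difference of RRM2 minus SAMHD1 within libraries was 0.33. The groups were separated by 0.16 against up to 0.22 within a pair, so the separation was not larger than the replicate spread. SAMHD1 (chr20:35518632-35580296, minus strand, 16 exons) overlaps TLDC2 (listed as C20orf118) on the opposite strand, which had 2 to 6 reads in a library.

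**Figure D3:**
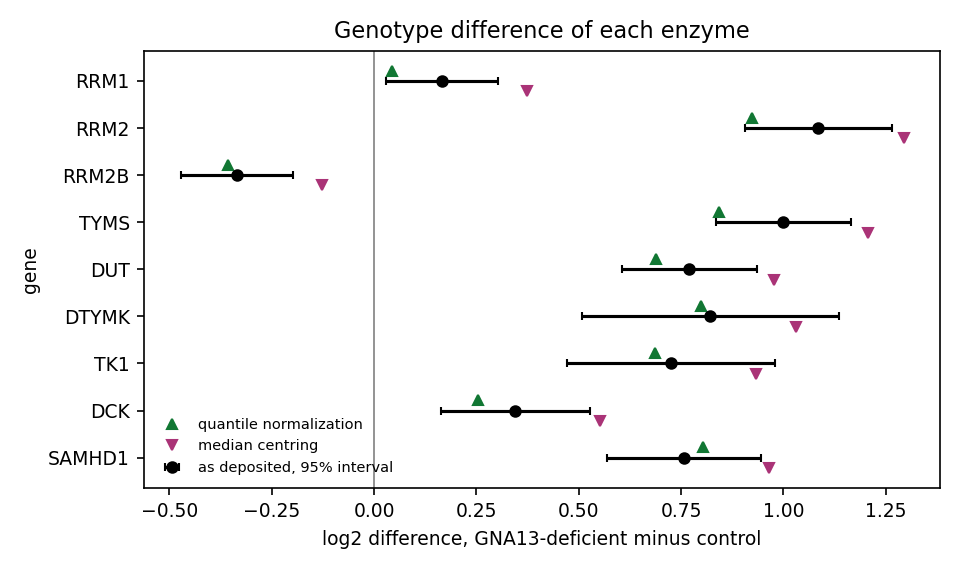
Log2 difference between the libraries labelled GNA13-deficient and control (horizontal axis) for the 9 enzymes (vertical axis), with the 95% interval from limma as bars and the values after quantile normalization and median centring as triangles. Over the 3 scalings RRM2 ranges from 0.92 to 1.29, TYMS from 0.84 to 1.21 and RRM1 from 0.04 to 0.37, and RRM2B lies below 0 under each.

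The order of the enzymes by level, compared per kilobase of the reference transcript, also differed between the groups. In control libraries the mean log2 level per kilobase was 12.18 for TYMS, 11.37 for RRM2, 11.08 for RRM1, 10.86 for DCK, 10.74 for DUT, 10.63 for TK1, 10.54 for DTYMK, 8.80 for RRM2B and 7.19 for SAMHD1. TYMS was thus the most abundant and SAMHD1 the least, and the neighbours DUT and TK1, and TK1 and DTYMK, overlapped. In GNA13-deficient libraries TYMS (13.18) and RRM2 (12.46) again led, followed by DUT (11.51), DTYMK (11.37), TK1 (11.36), RRM1 (11.24), DCK (11.20), RRM2B (8.46) and SAMHD1 (7.95). Here DUT overlapped DTYMK, DTYMK overlapped TK1, and RRM1 overlapped DCK. The range of DTYMK (11.24 to 11.5) also overlapped those of RRM1 (11.23 to 11.26) and DCK (11.15 to 11.25). By their means, RRM1 and DCK stood below DUT, DTYMK and TK1 in this order, and above them in control.

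Markers of the cell cycle moved with these enzymes. Of 40 S phase markers, 36 were called higher and 0 lower (median difference 0.64), and of 52 tested G2/M markers 44 were called higher and 1 lower (median 0.70). PCNA, the sliding clamp of replication, differed by 0.89 (SE 0.06, adjusted p = 0.00175), and MKI67, a marker of proliferating cells, by 0.78 (SE 0.13, adjusted p = 0.0129). Among 10 housekeeping genes, 1 was called (HPRT1, 0.85) and the median was 0.12. The mean of the S phase markers was 11.29 and 11.25 in control and 11.88 and 11.90 in GNA13-deficient libraries. Subtracting that mean within each library, a step added after the values were seen and given with no test, left differences of 0.46 for RRM2, 0.37 for TYMS, 0.14 for DUT and 0.13 for SAMHD1, with the groups apart. SAMHD1 was at -1.861 and -1.855 in control and -1.654 and -1.799 in GNA13-deficient libraries, a separation smaller than the gap within the latter pair. For DUT (0.591 and 0.545 against 0.675 and 0.750) the separation barely exceeded the replicate gap. TK1 (0.10) and DTYMK (0.20) overlapped between the groups on this scale. DCK (-0.28), RRM1 (-0.46) and RRM2B (-0.96) were lower in GNA13-deficient libraries on this scale, again with the groups apart. What part of the 9 differences goes with the share of cells in S phase was not tested.

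Of 7 genes that handle the folates used by TYMS or supply it with dUMP, 6 were called higher and 1 lower. Their median difference was 0.40, and 13.1% and 16.6% of all genes tested were called higher and lower. GGH, which trims polyglutamate from folates, had log2 values of 9.44 and 9.60 in control and 10.58 and 10.79 in GNA13-deficient libraries (1.17, SE 0.10, 2.24-fold, adjusted p = 0.00253). MTHFD1, which interconverts one-carbon forms of folate, differed by 0.66 (SE 0.05, adjusted p = 0.00222). Both genes were separated by more than the gap within either pair. The exception was DCTD, the deaminase that makes dUMP from dCMP, at 10.56 in both controls and 10.04 and 10.21 in GNA13-deficient libraries, a difference of -0.44 (SE 0.08, adjusted p = 0.0150) that was -0.23 and not called after median centring (adjusted p = 0.107).

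Other nucleoside and nucleotide kinases were mixed, with 7 of 18 called higher and 3 lower (median 0.12). Over all genes tested, 13.1% were called higher and 16.6% lower, and calls were more common at higher levels. Those called lower included NME4, the mitochondrial nucleoside diphosphate kinase (-1.03, SE 0.12, adjusted p = 0.00495), and AK1, an adenylate kinase (-1.68, SE 0.41, adjusted p = 0.0373). CMPK2, the interferon-inducible mitochondrial UMP-CMP kinase, had 12 and 14 reads in control and 0 in both GNA13-deficient libraries, which is at least 4.12-fold lower against a floor of 3 reads per library. Of the genes for nucleotide breakdown and removal of damaged nucleotides, 16 of 19 were tested, 1 was called higher and 5 lower, and the median was 0.06. NUDT16, which hydrolyses inosine diphosphates, fell from 323 and 295 reads to 22 and 24, a 12.8-fold lower level (-3.68, SE 0.20, adjusted p = 0.00114). NUDT1, which removes oxidised purine triphosphates, differed by -1.20 (SE 0.10, adjusted p = 0.00224), and NT5M, the mitochondrial deoxynucleotidase, by 0.84 (SE 0.19, adjusted p = 0.0296). The others called lower, named after their values were seen, were the nucleotidases NT5C2 (-0.47), NT5C3 (-0.63) and NT5C3L (-0.71).

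Among nucleoside and nucleotide transporters, 7 of 10 were tested, of which 2 were called higher and 3 lower (median -0.23). The shares over all genes tested were 13.1% and 16.6%. SLC29A1, the main equilibrative nucleoside transporter, which brings in the substrates of TK1 and DCK, was 11.01 and 11.03 in control and 11.96 and 11.99 in GNA13-deficient libraries (0.95, SE 0.05, adjusted p = 0.00114). Its relatives SLC29A2 (-0.78, SE 0.10, adjusted p = 0.00610) and SLC29A4 (-3.40, SE 0.41, adjusted p = 0.00564, from 53 and 98 reads to 6 and 7) were lower.

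Regulators of turnover and phosphorylation of these enzymes had 8 of 14 tested genes called higher and 1 lower (median 0.31). Of all genes tested, 13.1% were called higher and 16.6% lower. CCNF, the F-box protein that directs degradation of RRM2 late in the cell cycle, differed by 0.85 (SE 0.06, adjusted p = 0.00179). CDK1 (listed as CDC2) and CDK2, which with cyclin A phosphorylate RRM2 and SAMHD1, differed by 0.72 (adjusted p = 0.00313) and 0.74 (adjusted p = 0.00252), and CCNA2, cyclin A2, by 1.08 (SE 0.06, adjusted p = 0.00115). FZR1, an activator of the anaphase-promoting complex that targets TK1 and RRM2, differed by 0.10 (adjusted p = 0.348) and was called after median centring (0.31, adjusted p = 0.0364). Another that was not called was CDKN1A, the CDK inhibitor p21, at -0.14 (adjusted p = 0.320), which turned to 0.06 after median centring. The gene called lower was ATM, the kinase of the DNA break response, which phosphorylates RRM2B (-1.50, SE 0.13, adjusted p = 0.00246). These are mRNA levels, and neither phosphorylation nor protein was measured.

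**Figure D4:**
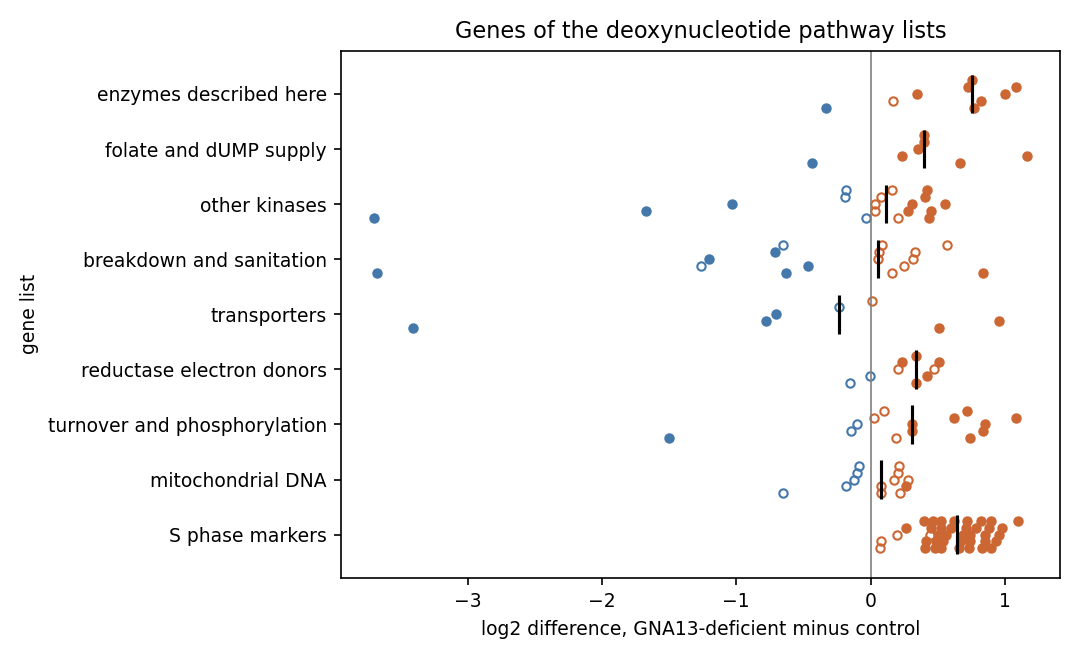
Log2 difference between the libraries labelled GNA13-deficient and control (horizontal axis) for each tested gene of the 9 enzymes, the pathway lists and the S phase markers (vertical axis), with filled points for called genes, open points for the others and a bar at the median of each list (CMPK2, the kinase farthest to the left, stands at its fitted value, which is no bound). The median is 0.76 for the 9 enzymes, 0.64 for S phase markers, 0.40 for folate and dUMP supply and -0.23 for transporters.

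The 3 genes with profiles closest to RRM2 over the 4 libraries, among 8472 of at least median level, were CCNA2, EBP, a sterol isomerase, and NRM, nurim of the nuclear envelope, with summed absolute differences between centred log2 profiles of 0.035, 0.062 and 0.068. Those closest to RRM2B were STAM2, an endosomal sorting protein (0.022), CRY2, a circadian repressor (0.0275), and TMEM167B (0.036). With 4 libraries, many genes can share such a profile.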

How the data were processed

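RNA-seq of 4 NUDUL1 libraries was analysed from 1 table of log2 values deposited by the authors. Per the study's methods, reads from a stranded mRNA kit were aligned to hg19 with STAR and normalised reads were log2-transformed, and the submitters' processing notes name HTSeq and hg19. The normalization and the gene annotation are not given in the sources used here. The deposited log2 values stepped in whole reads, with 1 read worth 0.984 to 1.08. Of values up to 400 reads, 100% lay within 0.1 of a whole number, or within a wider margin for rounding at higher counts. Genes without a listed value stood at 0. In control replicate 2, where 1 read was worth 0.984, 0 genes stood at 1 read and 9309 at 0. The other libraries had 7946 to 8602 genes at 0. The log2 of 0.984 is negative, so genes with 1 read may stand at 0 there and not count toward the filter. The row of mapped totals was left out of all tests.

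Genes above 0 in at least 2 libraries (16945 of 25066) were fitted with limma 3.58.1 in R 4.3.3 (mean-variance trend, genotype only), with Benjamini-Hochberg adjustment over all genes tested and a threshold of 0.05. Fold changes are 2 to the power of the log2 difference. The fit was also run on simulated counts, drawn independently for each library. That run checked the code and does not bear on the calls made here. Levels per kilobase used the reference transcript length in GENCODE (GRCh37), which also gave gene coordinates. Ratios within libraries were compared by exact permutation tests. Replicates of a genotype differed by more than sampling noise (chi-square per degree of freedom 11.7 in control and 11.4 in GNA13-deficient libraries), so they were not merged, although such a spread can arise in library preparation alone.

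The 9 enzymes and the gene lists were chosen with earlier results of these data known, and some items of those lists are not reported here. The genes named were the 9 enzymes, the 3 called genes with the largest absolute difference in each list discussed, others fixed by name (DCTD, CCNF, FZR1, CDK1, CDK2, TK2, DGUOK, CDKN1A, MKI67, PCNA and GNA13), genes overlapping an enzyme, and the 3 closest profiles to RRM2 and RRM2B. Alternatives were other filters, pseudocounts, scalings and variance models, the replicate number as a block, voom on the recovered reads, and leaving out each library.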

Additional observations from a re-analysis of the deposited data

How the results depend on the processing

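No difference of the 9 enzymes changed sign under any of the 10 alternatives or in the 4 fits that left out a library. Of these, only quantile normalization and median centring could readily have turned a sign. The filters, the variance models and the replicate block left each difference unchanged. Groups that do not overlap keep their direction when a library is left out. The calls of the 9 enzymes depended on how the spread was estimated. As reported, 8 enzymes (7 higher and 1 lower), 42 genes of the pathway lists other than mitochondrial DNA maintenance and 5037 genes in all were called. Without a filter on low values, 5 enzymes (4 higher), 12 pathway genes and 1999 genes passed, and DCK, DTYMK and TK1 lost the call. Without the mean-variance trend, 4 enzymes (4 higher and 0 lower), 20 pathway genes and 2718 genes passed, and DCK, DTYMK, TK1 and RRM2B lost it. Median centring left 0 enzymes called lower. Of the 49 called genes that the naming rule gave besides the enzymes, 21 lost the call without the filter, 13 without the trend and 6 after centring. DCTD, MKI67, AK1, GSR, TXN, TXN2, SUCLA2, BLNK, MOB1B and RGS13 lost it both without the filter and without the trend. With any library left out, limma called 0 enzymes, 0 pathway genes and 0 genes in all, with 5257 to 5600 genes at an unadjusted p under 0.05, and the lone sample of a group was then assumed to vary like the others. The differences themselves ranged over these 4 fits from 1.04 to 1.13 for RRM2, from 0.96 to 1.04 for TYMS, from 0.60 to 0.85 for TK1 and from -0.36 to -0.31 for RRM2B. Fitting the replicate number as a block raised the calls to 9 enzymes, with RRM1 added (adjusted p = 0.0219), and 6616 genes, and DGUOK also passed (adjusted p = 0.0267). Same-numbered libraries deviated together (correlation 0.453 over 8473 genes), but share only a number. Of the 7 differences between enzymes within a library, 5 kept their separation after quantile normalization. All 7 were separated in the full data, so leaving out a library could not end a separation.

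Some differences near 0 turned sign. After median centring these were CDKN1A (0.064), DGUOK (0.0275) and the medians of B cell markers (0.171) and germinal center B cell markers (0.0593). CDKN1A was at 0.033 after quantile normalization, and the transporter median was 0.01 among genes of at least median level. With a library left out, the C20orf118 difference (a row of TLDC2) ranged from -0.0375 to 1.5, TK2 from -0.03 to 0.178 and the median of nucleotide breakdown genes from -0.0345 to 0.121. The causes were not tested.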

Other observations

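Thioredoxin, glutaredoxin and reductase genes, which include electron donors of ribonucleotide reductase but also mitochondrial forms, were measured as a list of 9. Of these, limma called 5 higher and 0 lower (median difference 0.34), against 13.1% and 16.6% of all genes tested. GSR, glutathione reductase, had log2 values of 11.68 and 11.48 in control and 12.06 and 12.12 in GNA13-deficient libraries (0.51, SE 0.08, adjusted p = 0.0120). TXN, thioredoxin, differed by 0.42 (SE 0.10, adjusted p = 0.0302) and TXN2, its mitochondrial form, by 0.34 (SE 0.09, adjusted p = 0.0404).

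Genes that maintain mitochondrial DNA, where RRM2B also has a role, differed little. Of 13 tested, 1 was called higher, SUCLA2, a subunit of succinyl-CoA ligase (0.27, SE 0.07, adjusted p = 0.0404), 0 were called lower and the median was 0.08. TK2, the mitochondrial thymidine kinase, had log2 values of 7.09 and 7.04 in control and 7.04 and 7.25 in GNA13-deficient libraries, which overlapped (0.07, adjusted p = 0.767). DGUOK, the mitochondrial deoxyguanosine kinase, was at 11.23 and 11.33 against 11.04 and 11.15 (-0.18, adjusted p = 0.109), and its difference turned to 0.03 after median centring.

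Germinal center B cell markers, a check of the labelled cell type, all had reads in each library. RGS13 had only 12 and 13 in control and 3 and 1 in GNA13-deficient libraries. Of 6 tested, 2 were called lower in limma, BCL6 (-2.49) and RGS13 (-2.78). RGS13 lost the call without the filter (adjusted p = 0.155) and without the mean-variance trend (adjusted p = 0.0723). Of 7 B cell markers, 1 was called higher and 2 lower. Among markers of other cell types, CD4 (-4.12), ITGAM (-5.21), LYZ (-2.53) and PECAM1 (-3.03) were called lower at levels far under those of the B cell markers. CD8A, with 5 reads in each control and 0 in both GNA13-deficient libraries, was also called lower. Above 0 and not called were 2 of 4 tested T and NK markers and 1 of 2 tested stromal and endothelial markers. All 4 tested myeloid markers were below 0.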
